A study of Arabidopsis thaliana with 8 samples.

Results

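DELLA proteins and the genes that make, inactivate and perceive gibberellin were followed in Arabidopsis seedlings of 14 days. The members are 10 genes picked by gene identifier, out of 27207 genes in the deposited table: the DELLA genes RGA (AT2G01570), GAI (AT1G14920), RGL1 (AT1G66350), RGL2 (AT3G03450) and RGL3 (AT5G17490), the DELLA partner gene SCL3 (AT1G50420), the receptor gene GID1A (AT3G05120), the synthesis genes GA20OX1 (AT4G25420) and GA3OX1 (AT1G15550), and the inactivation gene GA2OX6 (AT1G02400). The study asked how the transcription factor IDD4 and salt shape the seedling transcriptome. The 8 RNA-seq libraries used here form 4 groups of 2 biological replicates: idd4 with 100 mM NaCl, idd4 mock, WT with 100 mM NaCl and WT mock. The paper describes more replicates for its RNA-seq than these 2 per group. Both genotypes are in the Col-0 background. The idd4 mutant is a single line with a T-DNA insertion in the reading frame of IDD4. All seedlings grew for 5 days on half-strength MS medium before transfer to plates with or without NaCl. The paper gives the RNA-seq material as seedlings and mentions no dissection into roots and shoots.

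Gibberellins are growth-promoting hormones. GA 20-oxidases and GA 3-oxidases carry out the last steps to the active forms, and GA 2-oxidases inactivate them. DELLA proteins are nuclear repressors of growth that are marked for degradation when gibberellin binds its GID1 receptor. DELLA proteins do not bind DNA by themselves, and members of the IDD family of zinc-finger proteins can carry them to promoters, that of SCL3 included. DELLA activity is set largely by protein stability, which transcript levels do not measure.

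The 10 genes lie on chromosomes 1 to 5 of the TAIR10.1 reference, and each DELLA gene has a single exon. RGA lies at chr2:255247-257568 on the minus strand, GAI at chr1:5148982-5151415 on the plus strand and RGL1 at chr1:24748105-24750186 on the plus strand. RGL2 lies at chr3:819337-821652 and RGL3 at chr5:5763989-5766246, both on the minus strand. SCL3, at chr1:18677694-18680300 on the minus strand, has 2 exons and its coding sequence in 1 of them. GID1A, at chr3:1430363-1432844 on the plus strand, has 2 exons. The oxidase genes GA20OX1 (chr4:12990851-12992585, minus strand), GA3OX1 (chr1:5344388-5346342, minus strand) and GA2OX6 (chr1:486800-489651, plus strand) have 3, 2 and 3 exons, and no other annotated gene overlaps any of the 10.

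The 300 bases before the annotated start are printed for the 4 genes that passed the NaCl test described below, and for the 3 with a match to the ID1 core, the letters that IDD proteins are known to prefer. Capitals mark matches, on either strand, to the ID1 core (AGACAA) or to the ABRE core (ACGTG), the letters of abscisic acid response elements. The sequences run 5′ to 3′ along the gene's own strand and come from the RefSeq TAIR10.1 genome.
RGL3 (chr5:5766247-5766546, minus strand): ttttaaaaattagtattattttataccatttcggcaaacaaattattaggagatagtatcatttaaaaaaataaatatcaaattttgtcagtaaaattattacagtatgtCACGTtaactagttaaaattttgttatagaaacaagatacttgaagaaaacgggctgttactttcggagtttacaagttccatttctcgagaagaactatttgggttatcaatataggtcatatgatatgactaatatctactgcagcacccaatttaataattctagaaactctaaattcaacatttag
RGL1 (chr1:24747805-24748104, plus strand): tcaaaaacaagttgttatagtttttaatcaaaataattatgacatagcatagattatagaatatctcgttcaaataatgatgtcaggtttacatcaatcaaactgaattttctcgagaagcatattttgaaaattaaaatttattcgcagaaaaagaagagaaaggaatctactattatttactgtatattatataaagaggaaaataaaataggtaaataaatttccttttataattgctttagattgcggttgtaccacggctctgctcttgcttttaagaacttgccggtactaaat
SCL3 (chr1:18680301-18680600, minus strand): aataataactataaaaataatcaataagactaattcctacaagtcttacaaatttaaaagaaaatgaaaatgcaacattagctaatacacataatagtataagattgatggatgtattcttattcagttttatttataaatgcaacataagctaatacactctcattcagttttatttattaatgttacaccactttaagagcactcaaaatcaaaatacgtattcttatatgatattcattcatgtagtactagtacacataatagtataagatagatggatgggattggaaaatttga
GID1A (chr3:1430063-1430362, plus strand): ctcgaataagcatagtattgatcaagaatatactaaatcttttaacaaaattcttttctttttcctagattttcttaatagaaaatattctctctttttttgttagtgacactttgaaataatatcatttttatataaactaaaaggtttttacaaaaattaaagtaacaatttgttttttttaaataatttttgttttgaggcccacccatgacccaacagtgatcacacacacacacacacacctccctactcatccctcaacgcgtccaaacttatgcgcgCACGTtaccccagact
GA20OX1 (chr4:12992586-12992885, minus strand): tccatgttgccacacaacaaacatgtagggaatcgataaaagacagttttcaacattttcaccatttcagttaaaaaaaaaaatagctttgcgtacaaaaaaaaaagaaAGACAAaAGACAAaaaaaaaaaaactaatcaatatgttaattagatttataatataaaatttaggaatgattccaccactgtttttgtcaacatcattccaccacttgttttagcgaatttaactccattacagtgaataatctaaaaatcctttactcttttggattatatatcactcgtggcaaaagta
GA3OX1 (chr1:5346343-5346642, minus strand): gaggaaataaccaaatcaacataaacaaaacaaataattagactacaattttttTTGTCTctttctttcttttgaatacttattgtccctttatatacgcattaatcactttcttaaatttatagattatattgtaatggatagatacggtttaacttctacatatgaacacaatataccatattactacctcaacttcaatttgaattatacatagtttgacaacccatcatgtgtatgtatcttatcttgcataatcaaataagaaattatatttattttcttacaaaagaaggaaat
GA2OX6 (chr1:486500-486799, plus strand): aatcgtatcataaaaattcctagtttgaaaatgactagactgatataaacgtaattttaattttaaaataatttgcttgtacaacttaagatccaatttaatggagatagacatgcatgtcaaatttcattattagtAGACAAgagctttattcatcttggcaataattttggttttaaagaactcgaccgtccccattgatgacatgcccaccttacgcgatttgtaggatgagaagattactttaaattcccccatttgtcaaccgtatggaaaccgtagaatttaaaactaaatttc

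RGL3 and GID1A each held 1 ABRE core, 190 to 186 and 16 to 12 bases before the start. GA20OX1 held 2 ID1 cores, at 191 to 186 and at 184 to 179 bases, and GA3OX1 and GA2OX6 held 1 each, at 246 to 241 and at 163 to 158 bases. Thus 3 of 10 members held an ID1 core, against 22.9% of 26548 promoters of the same length, and 2 of 10 an ABRE core, against 25.7%. The DRE core CCGAC (13.8% of promoters) and the G-box CACGTG (7.2%), which contains the ABRE core, were found in 0 of 10. A match says only that the letters are there, and the windows of SCL3 and RGL1 held none of the 4 motifs.

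Each value is the number of fragments on a gene times a constant of its library, called a scaled fragment count here. They rest on 5882615 to 13557480 fragments per library, with idd4 NaCl 1 the shallowest and idd4 NaCl 2 the deepest. Between the 2 libraries of a group, Pearson's r across genes ranged from 0.954 to 0.975. The IDD4 transcript was checked first. It measured 603 and 528 in idd4 NaCl, 477 and 436 in idd4 mock, 414 and 428 in WT NaCl, and 274 and 360 in WT mock. Every library labelled idd4 was thus above every WT library, so that IDD4 transcript was not lower under the mutant label (log2 difference 0.48 ± 0.13 SE, unadjusted p = 0.0060, adjusted p = 1.00 with limma and Benjamini-Hochberg adjustment over all genes). Genotypes below are those of the labels, and every direction between genotypes is drawn between libraries labelled idd4 and WT libraries. Root markers (7 genes) summed to 1178 to 1959 in NaCl libraries and to 2271 to 3925 in mock libraries. Shoot markers (6 genes) summed to 225095 to 398063 in NaCl libraries and to 444950 to 625639 in mock libraries. RBCS1A and LHCB1.3 had the largest values in every library and set most of this sum. Taken singly, RBCS1A, LHCB1.1 and LHCB2.1 overlapped between treatments, while LHCB1.3, LHCA1 and PSAD1 did not. No marker was at 0 in any library. Where roots and shoots are sampled together, fewer cells of a type and less RNA per cell cannot be told apart. The part of the marker shift in the results below was not tested.

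NaCl moved 4 of the 10 members over both genotypes. RGL3, SCL3 and GID1A rose and RGL1 fell, while RGA, GAI, RGL2 and the 3 oxidase genes did not pass. Over all 21820 genes tested, 12.1% were called higher and 3.80% lower in the same comparison, 15.9% in all. The contrast is NaCl minus mock on log2(value + 1), as the mean over the genotypes, fitted with limma. A gene is called at a Benjamini-Hochberg adjusted p under 0.05 over all genes tested, and all 10 members were tested. Folds are given on the same scale, which understates those of low genes. The median gene was 0.25 higher under NaCl on this scale. Scaling by median of ratios brought that median to 0.02 and changed the split of calls to 1160 higher and 1502 lower, against 2644 higher and 829 lower on the deposited scale. RGL3, SCL3, GID1A and RGL1 were called on both scales. With median-of-ratios scaling their log2 differences were 1.67, 0.72, 0.58 and -0.92. On the deposited scale they were 1.90, 0.96, 0.82 and -0.68, so that the rises were smaller and the fall larger after rescaling.

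**Figure D1:**
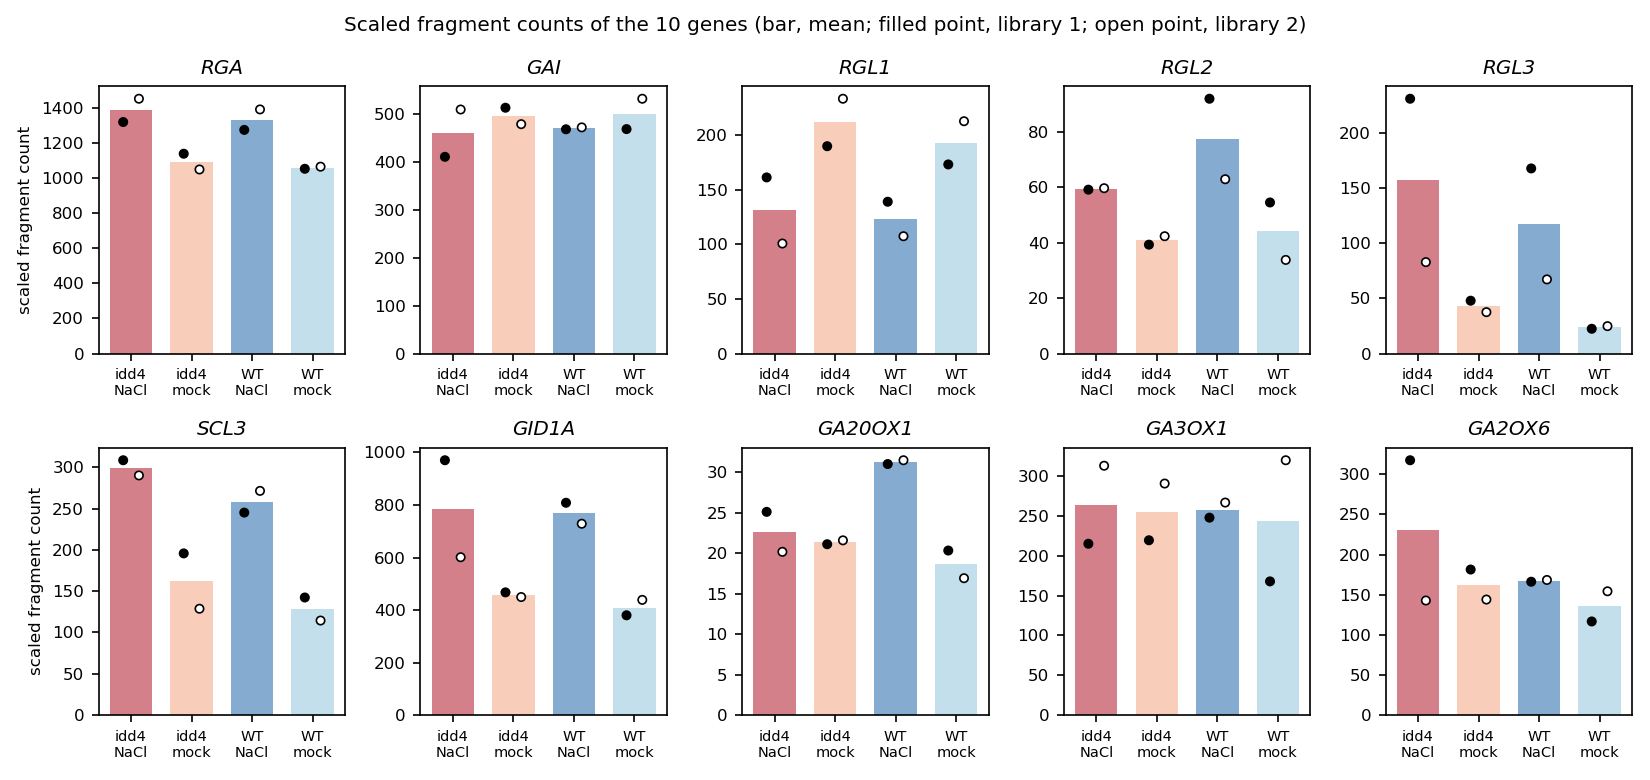
Scaled fragment counts (vertical axis, from 0) of the 10 genes in the 8 libraries, in the groups idd4 NaCl, idd4 mock, WT NaCl and WT mock. Bars are means of 2 libraries and points are single libraries (filled, library 1, open, library 2). All 4 NaCl libraries lie above all 4 mock libraries for RGA, RGL2, RGL3, SCL3 and GID1A, and below them for RGL1.

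RGL3, a DELLA gene known for its role in jasmonate and defence responses, had the widest span. It measured 231 and 83.0 in idd4 NaCl, 48.0 and 37.6 in idd4 mock, 168 and 67.3 in WT NaCl, and 22.5 and 24.9 in WT mock. All NaCl libraries were above all mock libraries, and in both genotypes library 1 under NaCl was more than library 2. RGL3 rose 3.75-fold (log2 difference 1.90 ± 0.38 SE, 95% interval 1.05 to 2.76, adjusted p = 0.013 with limma). The call held under all alternatives tried, and leaving out single libraries gave 1.54 to 2.27.

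RGL1, a DELLA gene with known roles in seed germination and flower development, went the other way. It measured 161 and 100.8 in idd4 NaCl, 190 and 234 in idd4 mock, 139 and 108 in WT NaCl, and 173 and 213 in WT mock. The NaCl libraries all lay below the mock libraries, although 161 in idd4 NaCl 1 came close to 173 in WT mock 1. RGL1 fell by 0.68 on the log2 scale (± 0.20 SE, adjusted p = 0.048 with limma). The call stood at the edge of the threshold. It was lost when any library other than idd4 NaCl 1 was left out (adjusted p 0.070 to 0.15), and was clearer with median-of-ratios scaling (log2 difference -0.92, adjusted p = 0.016).

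RGA, with GAI the main repressor of stem and hypocotyl growth, was the most abundant of the 10. It measured 1322 and 1455 in idd4 NaCl, 1141 and 1051 in idd4 mock, 1277 and 1394 in WT NaCl, and 1055 and 1067 in WT mock. The groups did not overlap, but the difference of 0.34 ± 0.11 SE did not pass (adjusted p = 0.070, limma) and was near that of the median gene. With median-of-ratios scaling it was 0.09.

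GAI, the closest relative of RGA, had values that overlapped between treatments. It measured 411 and 510 in idd4 NaCl, 513 and 479 in idd4 mock, 468 and 472 in WT NaCl, and 469 and 532 in WT mock. The log2 difference was -0.10 ± 0.13 SE, with a 95% interval of -0.38 to 0.18 (adjusted p = 0.59, limma).

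RGL2, the DELLA gene best known for holding back seed germination, was low. It measured 59.2 and 59.7 in idd4 NaCl, 39.3 and 42.4 in idd4 mock, 92.1 and 63.0 in WT NaCl, and 54.6 and 33.8 in WT mock. All NaCl libraries were above all mock libraries by a small margin, and the difference of 0.67 ± 0.24 SE did not pass (adjusted p = 0.088, limma). The DELLA genes are close relatives, and how reads shared between them were counted is not given in the sources used here.

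Because a share within a library does not depend on the library's scaling factor, the make-up of DELLA transcript was also compared per kilobase of coding length. RGA made up 57.0 to 63.9% of the summed level in NaCl libraries and 54.3 to 56.9% in mock libraries. GAI made up 19.8 to 24.5% in NaCl libraries and 27.3 to 29.9% in mock libraries. These 2 genes held most of the transcript in every library. RGL1 made up 5.06 to 8.12% in NaCl libraries and 10.7 to 13.9% in mock libraries. RGL3 made up 3.46 to 11.4% in NaCl libraries and 1.36 to 2.67% in mock libraries. The ranges of these 4 genes did not overlap between treatments, while those of RGL2 did (2.78 to 4.41% in NaCl and 1.85 to 3.16% in mock libraries). The gap of RGA was the narrowest, 57.01% in WT NaCl 1 against 56.91% in WT mock 1. The shares of the 5 genes depend on each other, so that a larger share of RGL3 lowers the others, and they were not tested.

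**Figure D2:**
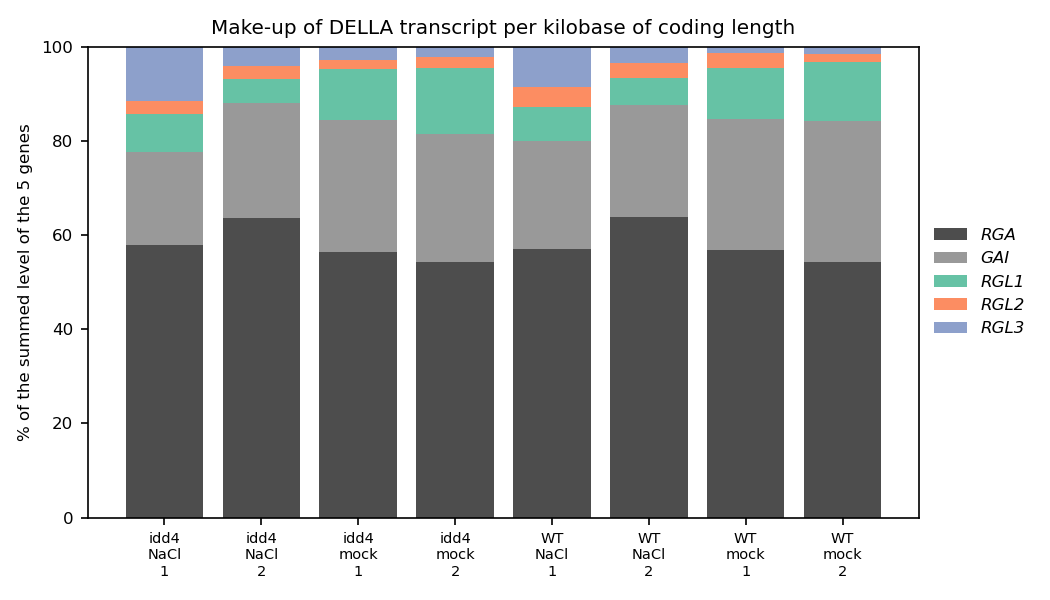
Share of each DELLA gene (vertical axis, percent) in the summed level of the 5 genes per kilobase of coding length, in each of the 8 libraries. RGA and GAI make up most of every bar, and the RGL3 segment spans 3.46 to 11.4% in NaCl libraries and 1.36 to 2.67% in mock libraries.

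SCL3 encodes a GRAS protein that acts with and against DELLA proteins and is a known DELLA target. It measured 309 and 290 in idd4 NaCl, 196 and 129 in idd4 mock, 245 and 271 in WT NaCl, and 142 and 114 in WT mock. The NaCl libraries stood clear of the mock libraries, the nearest being 245 in WT NaCl 1 and 196 in idd4 mock 1. SCL3 rose 1.95-fold (log2 difference 0.96 ± 0.17 SE, 95% interval 0.57 to 1.35, adjusted p = 0.0087 with limma), a call that held under all alternatives tried.

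GID1A, a gibberellin receptor gene, was likewise higher under NaCl. It measured 971 and 601 in idd4 NaCl, 467 and 449 in idd4 mock, 809 and 729 in WT NaCl, and 380 and 439 in WT mock. The groups did not overlap, and idd4 NaCl 1 was the highest library. GID1A rose 1.77-fold (log2 difference 0.82 ± 0.16 SE, 95% interval 0.46 to 1.19, adjusted p = 0.012 with limma). Without WT mock 1 the call was lost at adjusted p = 0.051, with the log2 difference at 0.77.

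GA20OX1, a GA 20-oxidase gene active in stem growth, rested on 14 to 31 fragments per library. It measured 25.1 and 20.2 in idd4 NaCl, 21.1 and 21.6 in idd4 mock, 31.0 and 31.5 in WT NaCl, and 20.3 and 16.9 in WT mock. WT NaCl was above WT mock while the idd4 groups overlapped, and the difference over both genotypes was 0.40 ± 0.26 SE (adjusted p = 0.30, limma).

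GA3OX1 encodes a GA 3-oxidase, the enzyme of the final activation step. It measured 215 and 313 in idd4 NaCl, 220 and 291 in idd4 mock, 248 and 267 in WT NaCl, and 168 and 320 in WT mock. The spread within WT mock was wider than any gap between group means, and the difference of 0.09 ± 0.23 SE (adjusted p = 0.79, limma) changed its sign with median-of-ratios scaling (-0.15).

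GA2OX6, which encodes a GA 2-oxidase, measured 318 and 143 in idd4 NaCl, 181 and 144 in idd4 mock, 166 and 168 in WT NaCl, and 117 and 154 in WT mock. A single library, idd4 NaCl 1, was far above the others. The difference over both genotypes was 0.36 ± 0.25 SE (adjusted p = 0.33, limma). Without idd4 NaCl 1 it was 0.07, and without idd4 NaCl 2 it was 0.64 and passed (adjusted p = 0.049, limma).

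Over both genotypes, 5 of 10 members had all 4 NaCl libraries above all 4 mock libraries, against 21.7% of all genes, and 1 of 10 had them below, against 5.44%. Within the libraries labelled idd4, 5 of 10 lay above and 1 below without overlap, against 40.2% and 12.6% of all genes, and within WT 7 and 1, against 42.5% and 11.9%. With 2 libraries against 2, a gap between groups was thus common among all genes. With a single genotype and 2 libraries against 2, 0 of 10 members passed in either with limma. The share of all genes called was 2.96% in the libraries labelled idd4 (2.08% higher and 0.880% lower) and 2.40% in WT (1.85% higher and 0.550% lower). RGL3 had a difference of 1.68 ± 0.54 SE in idd4 (adjusted p = 0.13) and 2.13 ± 0.54 SE in WT (adjusted p = 0.077). SCL3 had 0.91 ± 0.25 in idd4 (adjusted p = 0.085) and 1.01 ± 0.25 in WT (adjusted p = 0.069), and GID1A 0.74 ± 0.23 in idd4 (adjusted p = 0.12) and 0.91 ± 0.23 in WT (adjusted p = 0.077, all with limma). These 3 genes thus pointed the same way in both genotypes. DESeq2 on the recovered fragments called RGL3 in each (adjusted p = 0.041 in idd4 and 0.0055 in WT). It called more genes than limma, 1172 in idd4 and 1094 in WT of 23718 tested. At an unadjusted p under 0.05, which limma gave to 7541 of all 21820 genes over both genotypes, 6 members stood out: RGA, RGL1, RGL2, RGL3, SCL3 and GID1A.

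**Figure D3:**
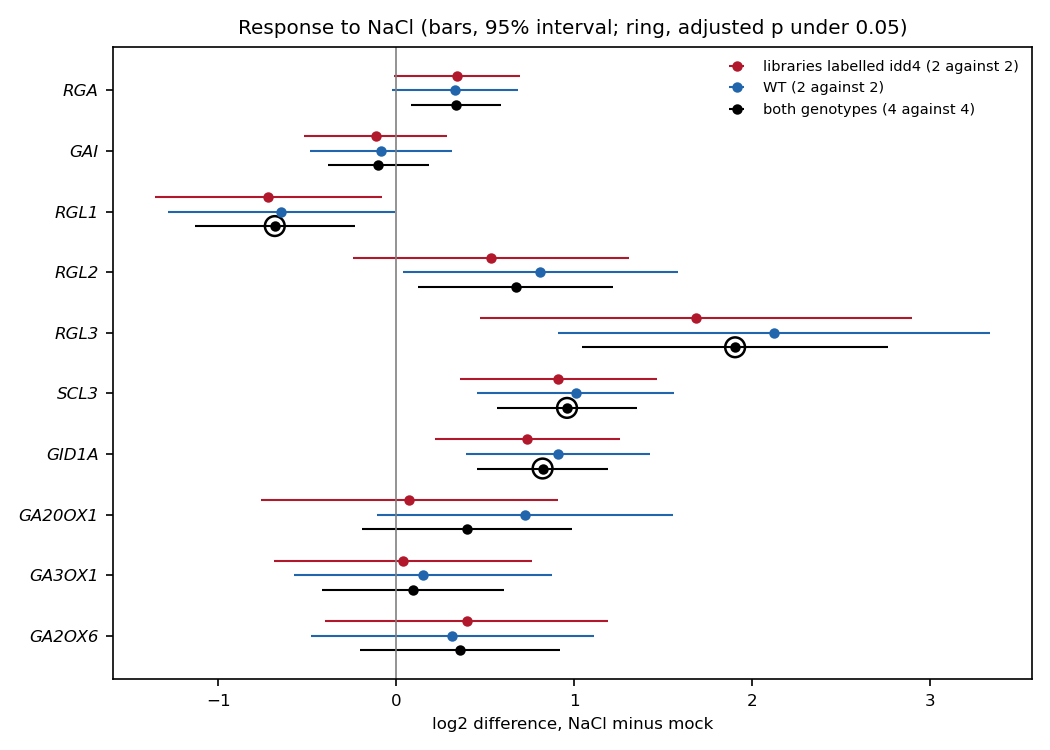
Log2 difference, NaCl minus mock (horizontal axis), of each of the 10 genes in the libraries labelled idd4 (red), in WT (blue) and over both genotypes (black). Points are limma estimates, lines 95% intervals, and rings mark an adjusted p under 0.05. Only the black estimates of RGL1, RGL3, SCL3 and GID1A are ringed.

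Between genotypes, 0 of 10 members passed under NaCl, in mock, over both treatments or in the interaction of genotype and NaCl, and 0% of all genes were called in each with limma as fitted here. At an unadjusted p under 0.05, limma gave 532, 274, 640 and 203 genes in these comparisons, edgeR 495, 279, 596 and 226, and DESeq2 251, 144, 315 and 100. No member was among the 640. After adjustment edgeR called 0 genes in each, and DESeq2 0, 3, 7 and 0, with 0 members among them.

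Over both treatments the libraries labelled idd4 minus WT gave 0.60 for RGL3 (95% interval -0.26 to 1.46), from a mean of 100.0 in idd4 and 70.7 in WT. GA2OX6 gave 0.31 (-0.26 to 0.87) and SCL3 0.26 (-0.13 to 0.65). RGL2 gave -0.21 (-0.76 to 0.34) and GA20OX1 -0.13 (-0.72 to 0.46). RGA, GAI, RGL1, GID1A and GA3OX1 had differences between -0.03 and 0.10. The narrowest intervals were those of RGA, -0.20 to 0.30, and GAI, -0.31 to 0.26. A difference of 1 on the log2 scale in either direction lay outside the interval of every member except RGL3.

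Within single treatments, RGL3 had the largest difference in mock and GA20OX1 under NaCl. RGL3 in mock measured 48.0 and 37.6 in idd4 and 22.5 and 24.9 in WT without overlap (log2 difference 0.82 ± 0.54 SE, adjusted p = 1.00, limma), on 21 fragments in its lowest library. GA20OX1 under NaCl measured 25.1 and 20.2 in idd4 and 31.0 and 31.5 in WT (-0.46 ± 0.37 SE, adjusted p = 1.00, limma). Under NaCl, 1 member (SCL3) lay above and 2 (RGL2 and GA20OX1) below WT without overlap, against 9.32% and 18.1% of all genes. In mock, 3 lay above (RGL3, GID1A and GA20OX1) and 0 below, against 9.05% and 15.9%. Over both treatments 0 lay above and 0 below, against 0.183% and 1.24%. The interaction ranged from -0.65 ± 0.52 SE for GA20OX1 to 0.08 ± 0.50 SE for GA2OX6 (adjusted p = 1.00 for each, limma), so that a different NaCl response of the 2 genotypes was not detectable with 2 libraries a group.

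**Figure D4:**
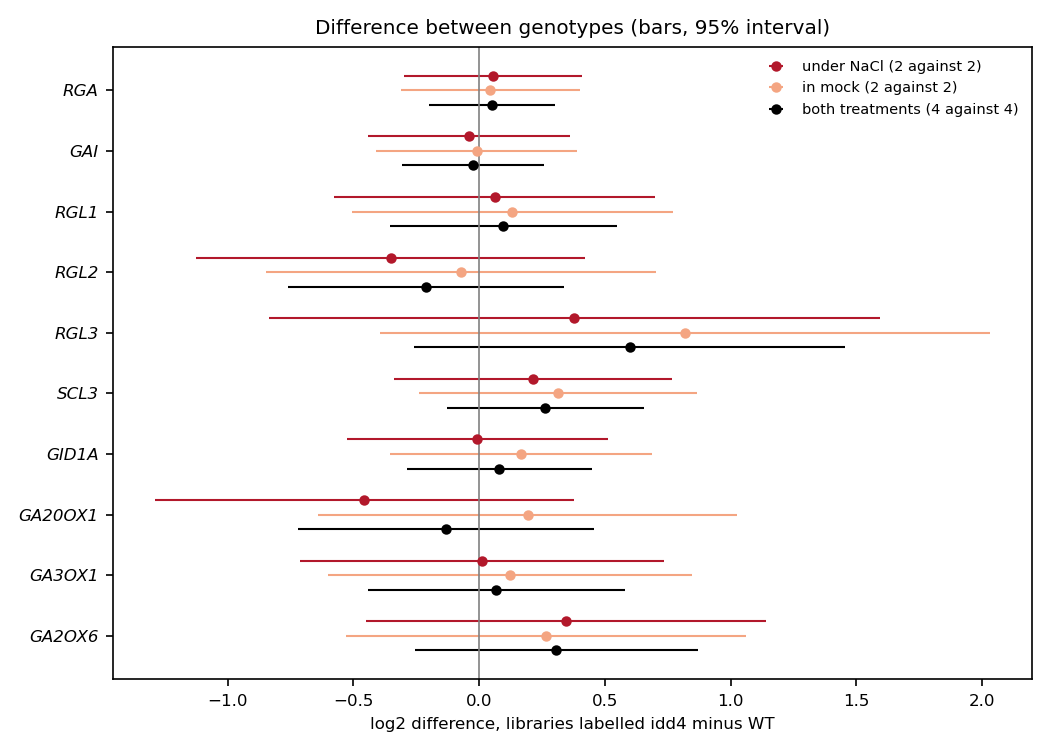
Log2 difference, libraries labelled idd4 minus WT (horizontal axis), of each of the 10 genes under NaCl (red), in mock (orange) and over both treatments (black). Points are limma estimates and lines 95% intervals, all of which include 0.

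Per kilobase of coding length, averaged over the 8 libraries, RGA was highest at 692 (range 596 to 825), followed by GID1A at 583 (366 to 935). These 2 overlapped, and both ranges lay above that of GAI, at 301 (256 to 332). With transcript length, however, GID1A (198.5 to 507.0) overlapped GAI (168.8 to 218.6). Without length correction they overlapped too (379.9 to 970.5 and 410.8 to 532.1). The range of RGA stayed above that of GAI in both variants. GA3OX1 followed at 237, GA2OX6 at 176, SCL3 at 146 and RGL1 at 107. From GAI downwards the range of each gene overlapped that of the next. RGL3 at 54.3 (14.3 to 147), RGL2 at 33.8 (20.6 to 56.0) and GA20OX1 at 20.7 (14.9 to 27.8) closed the order. Within a library, RGA was 2.48 to 2.92 times GAI under NaCl and 1.82 to 2.04 times GAI in mock. The mean of the 8 ratios was 2.32, and 2.68 with transcript length, a variant chosen after the data were seen.

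Of 40 further genes of the pathway, 35 were tested, and 8 were called higher and 2 lower under NaCl over both genotypes. Over all genes 12.1% were called higher and 3.80% lower, and these shares are also those to hold beside the lists below. The oxidase, inactivation, receptor and DELLA-induced lists also hold members, which are counted in them. The median difference of the 35 was 0.36, against 0.25 over all genes. In early gibberellin synthesis, 1 of 5 genes was called, KO (ent-kaurene oxidase), at 158 and 156 in idd4 NaCl, 92.1 and 112 in idd4 mock, 146 and 195 in WT NaCl, and 108 and 87.5 in WT mock (log2 difference 0.71 ± 0.18 SE, adjusted p = 0.028, limma). Its groups did not overlap. The call was lost with median-of-ratios scaling (adjusted p = 0.13) and when any library other than idd4 NaCl 2 and WT NaCl 1 was left out (0.054 to 0.096).

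Among the GA 20-oxidase genes, GA20OX3 rose. It measured 16.1 and 15.5 in idd4 NaCl, 1.92 and 4.00 in idd4 mock, 24.01 and 17.4 in WT NaCl, and 10.7 and 3.98 in WT mock, from 2 to 24 fragments (log2 difference 1.81 ± 0.41 SE, adjusted p = 0.021, limma). The NaCl libraries lay above all mock libraries, and DESeq2 did not call the gene (adjusted p = 0.079). Its call was also lost without idd4 NaCl 1, idd4 mock 1, WT NaCl 1 or WT mock 2 (adjusted p 0.056 to 0.072, limma). In the list of 5, 4 were tested and GA20OX3 alone was called, with a median of 1.66. GA20OX2 had 1.60 ± 0.47 SE and narrowly did not pass (adjusted p = 0.051, limma), on 3 to 21 fragments. Its NaCl libraries also lay above all mock libraries. Of the 4 GA 3-oxidase genes, 2 were tested and 0 called, with the larger difference in GA3OX2 (-1.01 ± 0.38 SE, adjusted p = 0.10, limma).

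In the inactivation list of 11 genes, 9 were tested and 1 was called, GA2OX7, a GA 2-oxidase gene that acts on gibberellin precursors. It had 5 and 7 fragments in idd4 NaCl and 1 and 2 in WT NaCl, and 0 in each of the 4 mock libraries. Set against a limit of 3 fragments over the 4 mock libraries, it was 5.62-fold higher under NaCl per fragment sequenced. This ratio allows for no spread between libraries. The limma log2 difference of GA2OX7 was 2.17 (95% interval 0.95 to 3.38, adjusted p = 0.028). The test rests on these 15 fragments, and edgeR and DESeq2 on the fragments did not call it (adjusted p = 0.066 and 0.14). With limma the call was lost when any library other than idd4 NaCl 2 and WT NaCl 1 was left out (adjusted p 0.071 to 0.087).

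The receptor and DELLA turnover list held 7 genes, the member GID1A included, all tested. Of these, 4 were called higher: GID1A, SEC, SLY1 and SPY. SEC, an O-linked N-acetylglucosamine transferase that modifies DELLA proteins, measured 562 and 458 in idd4 NaCl, 275 and 304 in idd4 mock, 556 and 542 in WT NaCl, and 284 and 245 in WT mock. Its groups did not overlap, and SEC rose by 0.93 ± 0.13 SE (adjusted p = 0.0033, limma), a call that held under all alternatives tried. Within a genotype the difference was 0.81 ± 0.18 SE in idd4 (adjusted p = 0.053) and 1.06 ± 0.18 SE in WT (adjusted p = 0.025, limma). The interaction was -0.25 ± 0.26 SE (unadjusted p = 0.36, adjusted p = 1.00, limma). SLY1, the F-box protein that recruits DELLA proteins for degradation, had 0.50 ± 0.15 SE (adjusted p = 0.049), and SPY, an O-fucosyltransferase of DELLA proteins, 0.43 ± 0.12 SE (adjusted p = 0.041, limma). Both calls were lost with median-of-ratios scaling (adjusted p = 0.31 and 0.39) and when any single library was left out (0.060 to 0.17 and 0.074 to 0.13). The receptor genes GID1B and GID1C had 0.58 ± 0.18 SE (adjusted p = 0.054) and 0.36 ± 0.15 SE (adjusted p = 0.12, limma).

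Of 12 genes known as DELLA-induced, all tested, 3 were called higher and 0 lower, with a median of 0.54. The members SCL3 and GID1A are 2 of them. The third was LBD40, a LOB-domain transcription factor gene. It had 3 and 6 fragments in idd4 NaCl, 3 and 4 in WT NaCl and 0 in all mock libraries. Set against 3 fragments over the mock libraries, this was 6.0-fold higher per fragment sequenced, without allowance for spread between libraries. The limma log2 difference of LBD40 was 2.40 (95% interval 1.25 to 3.55, adjusted p = 0.017). The call was lost with DESeq2 (0.084) and without idd4 mock 2 or WT mock 2 (adjusted p = 0.057 and 0.053, limma).

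The GASA genes encode small cysteine-rich proteins, many of them induced by gibberellin. Of the 5 listed, 1 was called higher and 2 lower, with a median of -0.83. The gibberellin-regulated family gene AT1G22690 measured 19.7 and 20.9 in idd4 NaCl, 226 and 509 in idd4 mock, 39.0 and 11.9 in WT NaCl, and 254 and 550 in WT mock. It fell by 4.02 on the log2 scale (± 0.41 SE, adjusted p = 0.00083, limma), the widest difference of any pathway gene listed. GASA6, known to act in seed germination and cell elongation, measured 474 and 386 in idd4 NaCl, 1123 and 1468 in idd4 mock, 565 and 470 in WT NaCl, and 1406 and 1336 in WT mock, and fell by 1.5 (± 0.14 SE, adjusted p = 0.00061, limma). Both fell in each genotype alone, with adjusted p of 0.014 and 0.0080 in idd4 and 0.012 and 0.011 in WT. GASA4 rose by 0.79 ± 0.18 SE (adjusted p = 0.019, limma) with overlapping groups, and did not pass with median-of-ratios scaling (adjusted p = 0.084) or without idd4 mock 2, WT NaCl 2 or WT mock 2 (0.058 to 0.069). The calls of AT1G22690 and GASA6 over both genotypes held under all alternatives tried.

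**Figure D5:**
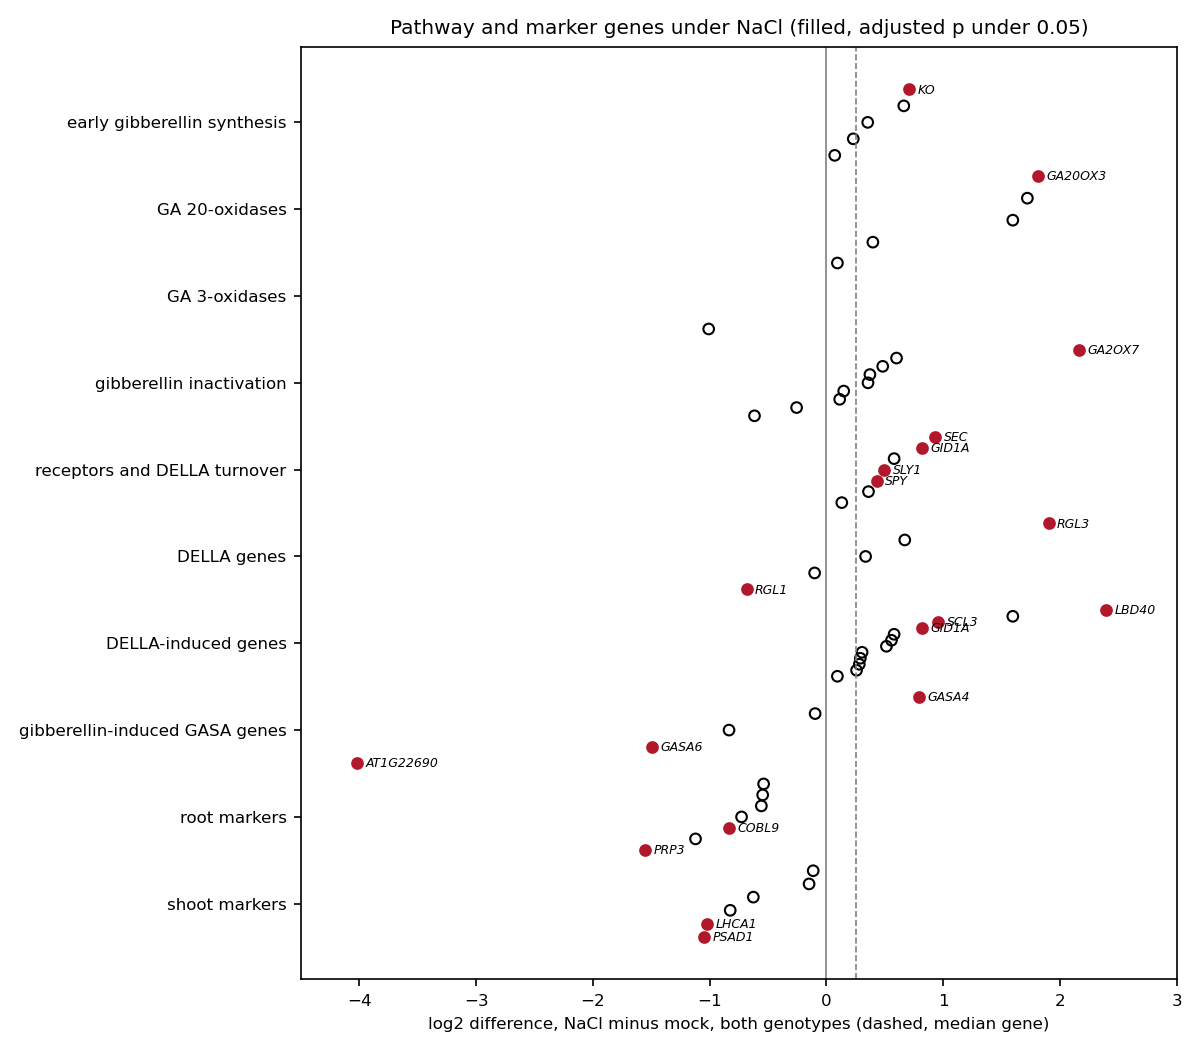
Log2 difference, NaCl minus mock over both genotypes (horizontal axis), of the tested genes of each pathway and marker list (rows, the members included). Filled points passed an adjusted p of 0.05 with limma, and the dashed line is the median of all genes at 0.25. AT1G22690 stands at -4.02 and GASA6 at -1.5, while the filled points of the receptor and turnover list lie between 0.43 and 0.93.

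In the marker lists, 2 of 7 root genes fell, COBL9 (-0.84, root hair) and PRP3 (-1.55, root hair), and 2 of 6 shoot genes fell, LHCA1 (-1.02) and PSAD1 (-1.05), both of photosystem I. Over both genotypes, as in these counts, all 13 had a difference below 0 under NaCl. In WT alone, 2 of 6 shoot genes had a difference above 0. These were LHCB1.1 (mean 40213 in NaCl and 35903 in mock) and LHCB2.1 (16274 and 13206). The part of the marker shift in the pathway results was not tested.

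For the 3 members with the widest range of group means, the genes with the most similar course over the 8 libraries were looked up among 19429 genes with a mean of at least 10, by Pearson's r of log2(value + 1). RGL3 was nearest to ELI3-2 (r = 0.9949), AT1G56090 (r = 0.990) and CYP76C2 (r = 0.990). ELI3-2 measured 370 and 20.9 in idd4 NaCl, 4.80 and 1.60 in idd4 mock, 264 and 19.5 in WT NaCl, and 0 in both WT mock libraries, so that it also had more in library 1 than in library 2 under NaCl. SCL3 was nearest to LACS8 (r = 0.992), AT5G62130 (r = 0.991) and DELTA-OAT (r = 0.990), and GID1A to AT1G26930 (r = 0.9948), AT3G11420 (r = 0.992) and DGK1 (r = 0.991). Among the members themselves, r over the same 8 libraries was 0.95 for RGL3 with GID1A, 0.94 for RGA with SCL3 and -0.91 for RGA with RGL1. With 8 libraries split by treatment these values describe the course only.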

How the data were processed

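Paired-end reads from 8 libraries were checked by the authors with FastQC, trimmed with Trimmomatic 0.32, aligned to TAIR10 with TopHat and assembled with Cufflinks. The deposited table holds a signal for each gene, in which the authors scaled fragment counts by a constant of the library. That constant (0.77567 to 1.79383) was found from the low values, of which at least 99.98% per library came within 0.05 of whole fragments once divided by it, and gave 5882615 to 13557480 fragments. The table name mentions FPKM, but no length scaling was found. Strand use and reads shared between relatives are not given in the sources used here.

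From the signal, log2(value + 1) was fitted for the 21820 of 27207 genes whose mean reached 1, using limma 3.58.1 (variance trend, R 4.3.3) and 1 mean per group. Two-sided p-values were adjusted by Benjamini-Hochberg over all genes, with 0.05 as the threshold. Intervals cover the spread between these libraries. Alternatives were median-of-ratios scaling, pseudocounts of 0.5 and 5, no filter, a minimum mean of 10, no trend, only the libraries compared, a replicate block, edgeR 4.0.16 and DESeq2 1.42.0 on recovered fragments, and each library left out. Replicate numbers come from the titles and are not stated to pair libraries.

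The members and the gene lists were chosen with earlier results of these data known. Named genes are the 10 members, IDD4, each listed gene called in any contrast, the gene of largest NaCl difference in each pathway list, and, for the 3 members of widest range, the 3 genes most correlated. A few further genes of the lists (GID1B, GID1C, GA20OX2, DDF2, RBCS1A, LHCB1.1, LHCB1.3 and LHCB2.1) were named after their values were seen. Levels per kilobase used coding lengths of TAIR10.1, in which 26558 of the 27207 identifiers were found.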

Additional observations from a re-analysis of the deposited data

How the results depend on the processing

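The NaCl calls of RGL3 and SCL3 over both genotypes held under every alternative tried, and that of GID1A under all but leaving out WT mock 1. RGL1 lost its call with a pseudocount of 5, with no filter and with no variance trend (adjusted p = 0.050, 0.056 and 0.089, limma). The number of members called over both genotypes was 4, and 2 to 4 when single libraries were left out, with RGL3 and SCL3 remaining without WT mock 1. In idd4 alone it was 0, but 2 with a replicate block (RGL3 and SCL3), 1 with DESeq2 (RGL3) and 0 to 1 when single libraries were left out (GID1A without idd4 NaCl 2). In WT alone it was 0, but 3 with the replicate block (RGL3, SCL3 and GID1A), 1 with DESeq2 (RGL3) and 0 to 2 when single libraries were left out (RGL3 and GID1A without either idd4 NaCl library). With the replicate block RGA also passed over both genotypes (log2 difference 0.34, adjusted p = 0.047, limma). Libraries of the same number shared deviations weakly, with correlations of 0.04 to 0.40 between groups. All were positive, and the largest was between idd4 NaCl and WT NaCl. Whether the numbers mark a batch is not stated and was not tested. GA3OX1 changed sign over both genotypes with median-of-ratios scaling (-0.15), edgeR (-0.17) and DESeq2 (-0.18), and ranged from -0.14 to 0.33 when single libraries were left out. Between genotypes, GAI changed sign with median-of-ratios scaling (0.028), edgeR (0.031) and DESeq2 (0.038) and ranged from -0.10 to 0.053 when single libraries were left out. The ranges were -0.072 to 0.27 for RGL1, -0.093 to 0.25 for GID1A and -0.16 to 0.30 for GA3OX1, and the causes of these changes were not tested. Counting each alternative for each single gene named, 614 kept direction and side of the threshold, 92 lost a call, 14 gained one and 16 changed sign. Among the marker genes, PRP3, LHCA1 and PSAD1 each lost the call without at least 1 library, and COBL9 kept it. Over all genes, limma called 3473 under NaCl over both genotypes, 646 in idd4 and 524 in WT. With the replicate block it called 5551, 1728 and 1564, with no variance trend 1958, 104 and 84, and with single libraries left out 1546 to 3677, 71 to 804 and 55 to 698. DESeq2 called 1172 in idd4 and 1094 in WT, and a fit of only the libraries compared 111 in idd4. Between genotypes in mock the replicate block called 1 gene, no member. GA20OX2, GA20OX3, GA2OX7, LBD40, DDF1 and DDF2 rest on few fragments, and differences of low genes are understated on the log2(value + 1) scale.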

Other observations

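DDF1 and DDF2 encode AP2 transcription factors known to be induced by salt, and DDF1 is known to activate GA2OX7. DDF1 measured 8.97 and 2.33 in idd4 NaCl, 2.88 and 2.40 in idd4 mock, 29.0 and 7.60 in WT NaCl, and 0 in both WT mock libraries. The idd4 groups overlapped and the WT groups did not. It passed over both genotypes (adjusted p = 0.028, limma) and in WT alone (adjusted p = 0.043, limma), but not over both genotypes with edgeR (adjusted p = 0.052), nor with limma when any library other than idd4 NaCl 2 and WT NaCl 2 was left out (adjusted p 0.067 to 0.088). In idd4 alone DDF1 did not pass (log2 difference 0.67 ± 0.82 SE, adjusted p = 0.66, limma). The interaction of genotype and NaCl for DDF1 was -3.34 ± 1.16 SE (unadjusted p = 0.018, limma) and did not pass after adjustment. A different NaCl response of DDF1 in the genotypes is thus not established here. DDF2 had 7 and 2 fragments in idd4 NaCl, 1 and 2 in WT NaCl and 0 in all 4 mock libraries, and did not pass (adjusted p = 0.078, limma).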
